A study of Mus musculus with 18 samples.

Results

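The insulin-like growth factor genes and their binding proteins were followed in the left ventricle of mice given isoproterenol, a beta-adrenergic agonist, with or without the tetracycline minocycline. The 10 genes Igf1, Igf2, Igf1r, Igf2r, Igfbp2, Igfbp3, Igfbp4, Igfbp5, Igfbp6 and Igfbp7 were taken by symbol from a deposited table of 48709 genes, and all 10 were found once and passed the filter on low counts that left 13281 genes for testing. All 18 libraries were polyA RNA of left ventricles from wild-type male C57BL/6J mice, given as 12 weeks old. In 6 libraries the mice had received isoproterenol at 30 mg/kg per day from an osmotic pump and minocycline at 50 mg/kg per day by intraperitoneal injection for 21 days. In 6 libraries they had received the same isoproterenol with saline injections, and in the 6 control libraries saline by both routes. No group received minocycline without isoproterenol among these samples, so a minocycline difference is one in animals that were all under isoproterenol. The labels' protocols speak of pooled RNA while each library carries its own number, so p-values measure the spread between these libraries.

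Insulin-like growth factors 1 and 2 are small secreted proteins that act through the Igf1r tyrosine kinase and, downstream of it, the PI3K and AKT pathway. In the heart this pathway is known for physiological growth of cardiomyocytes and for their survival. Binding proteins hold the factors outside the cell, lengthen their life or keep them from the receptor, and proteases such as Pappa cut some of them to release the factor. Igf2r, the mannose 6-phosphate receptor, takes up Igf2 for breakdown and carries lysosomal enzymes.

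Libraries held 14203041 to 22688664 counts. The 8 ventricular cardiomyocyte markers summed to 52599 to 63606 CPM (counts scaled to the normalised library total) in isoproterenol and minocycline libraries, 53305 to 58224 CPM in isoproterenol libraries and 63359 to 70779 CPM in control libraries, and liver markers to at most 0.615 CPM in any library. In 4 libraries (isoproterenol and minocycline replicate 2, isoproterenol replicate 5, control replicates 5 and 6) the atrial light chain Myl7 was above 80 CPM. Fibroblast markers summed to 1009.5 to 1738 CPM with isoproterenol and minocycline and 1096 to 1536 CPM with isoproterenol, against 752 to 1075 CPM in control libraries, and macrophage markers to 313 to 510.04 CPM with isoproterenol and minocycline and 329.6 to 454 CPM with isoproterenol, against 229.7 to 289 CPM in control libraries. Within the ventricular cardiomyocyte sum, Myh6 alone averaged 23341 CPM with isoproterenol and 29933 CPM in control libraries. In that comparison 1 of the 8 markers, Ryr2, was higher, at 1057 against 914 CPM. Fewer cells of a type and less RNA per cell cannot be told apart in such bulk samples.

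On the length-corrected TPM scale, Igfbp7 was the most abundant transcript of the family in each group and Igfbp2 the least abundant. Igfbp7, a secreted protein of the vessel wall and matrix that binds the growth factors with low affinity, averaged 168 ± 47.1 TPM with isoproterenol and minocycline, 186 ± 35.4 TPM with isoproterenol and 108 ± 16.9 TPM in control libraries (SD, n = 6 each). Its lowest library stood above the highest library of Igfbp5, the next in the order, in each group. Igfbp5, a matrix-bound binding protein, averaged 38.8 ± 11.03 TPM with isoproterenol and minocycline, 39.98 ± 13.1 TPM with isoproterenol and 29.5 ± 6.49 TPM in control libraries. Igfbp4, Igf2r and Igfbp6 followed, and Igfbp6, which prefers Igf2 over Igf1, stood above Igf2r on average with isoproterenol and minocycline (24.97 against 18.04 TPM) and with isoproterenol (24.4 against 20.4 TPM) and below it in control libraries (14.6 against 18.7 TPM), with overlapping ranges in each case. Among the lower members, the averages with isoproterenol and minocycline were 7.23 TPM for Igfbp3, 5.47 TPM for Igf2, 2.75 TPM for Igf1r and 1.91 TPM for Igf1. Those with isoproterenol were 6.23 TPM for Igfbp3, 4.98 TPM for Igf2, 2.24 TPM for Igf1r and 1.73 TPM for Igf1, and those in control libraries were 8.40, 4.57, 2.04 and 1.26 TPM for the same genes. Igf2 stood above Igf1r, and Igf1 above Igfbp2, without overlap in each group, while Igf1r and Igf1 overlapped. The 6 binding proteins together made up 86.4 to 94.2% of the family's summed TPM with isoproterenol and minocycline, 87.9 to 92.7% with isoproterenol and 84.8 to 90.3% in control libraries.

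**Figure D1:**
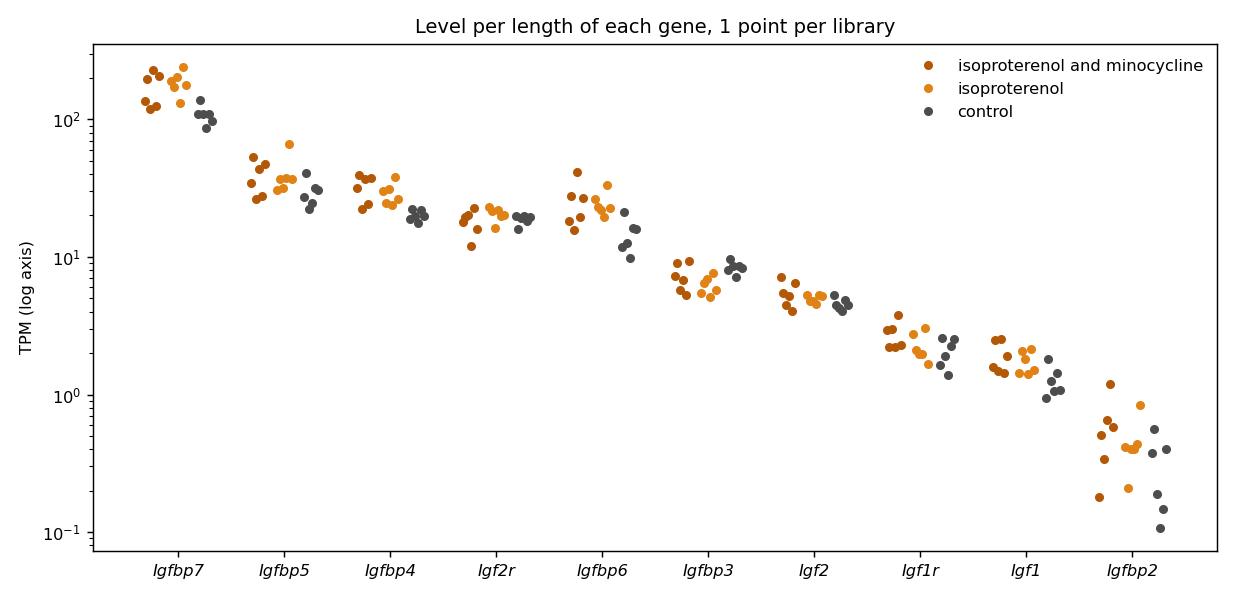
Levels of the 10 genes in TPM on a log axis, genes in the order of their control means, with 6 libraries (points) for isoproterenol and minocycline, isoproterenol and control. Igfbp7 lies above every other member in all 3 groups, and Igfbp2 lies lowest.

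The promoters of the 4 genes that passed the test in some comparison are shown because they moved in different directions. Each window is the 250 bases before the start in RefSeq (GRCm38.p6), 5′ to 3′ on the gene's strand, with motif matches in capitals:
Igfbp3 promoter, chr11:7213924-7214173 (minus strand): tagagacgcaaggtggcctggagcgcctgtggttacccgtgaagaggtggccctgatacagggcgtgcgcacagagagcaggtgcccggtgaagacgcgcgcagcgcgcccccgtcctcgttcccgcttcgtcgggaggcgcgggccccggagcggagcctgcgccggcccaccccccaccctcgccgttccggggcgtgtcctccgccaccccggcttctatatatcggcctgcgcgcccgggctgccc
Igfbp4 promoter, chr11:99040994-99041243 (plus strand): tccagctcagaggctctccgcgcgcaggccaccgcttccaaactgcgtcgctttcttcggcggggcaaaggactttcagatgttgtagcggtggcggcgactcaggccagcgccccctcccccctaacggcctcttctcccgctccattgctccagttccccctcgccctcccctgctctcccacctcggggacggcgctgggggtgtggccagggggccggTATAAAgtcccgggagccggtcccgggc
Igfbp6 promoter, chr15:102143936-102144185 (plus strand): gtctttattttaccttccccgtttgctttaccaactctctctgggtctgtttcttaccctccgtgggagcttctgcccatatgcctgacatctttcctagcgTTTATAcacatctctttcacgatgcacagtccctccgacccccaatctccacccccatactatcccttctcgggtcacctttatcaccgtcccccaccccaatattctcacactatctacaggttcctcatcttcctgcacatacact
Igfbp7 promoter, chr5:77408046-77408295 (minus strand): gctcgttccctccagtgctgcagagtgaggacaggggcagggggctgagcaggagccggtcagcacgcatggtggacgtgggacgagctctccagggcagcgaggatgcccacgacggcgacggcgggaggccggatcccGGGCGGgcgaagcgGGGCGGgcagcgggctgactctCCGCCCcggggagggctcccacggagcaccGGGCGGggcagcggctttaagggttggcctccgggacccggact
Igfbp3, Igfbp4 and Igfbp7 had G+C contents of 73.2%, 69.2% and 74.0%, whereas Igfbp6 had 49.6%, against a median of 52.4% over 32851 windows of the same length. The letters searched on both strands were TATAAA, found in 12.4% of all windows, GGGCGG (a GC box) in 32.7%, TGACGTCA in 1.55%, TGACG in 17.8% (which includes the longer palindrome), TGANTCA in 6.75% and TTCNNNGAA in 7.02%. Igfbp4 held 1 TATAAA match 28 bases before its start, Igfbp6 held 1 at 148 bases before it on the other strand, Igfbp7 held 4 GC boxes, and Igfbp3 held none of these letters. The Igfbp6 window precedes a RefSeq start that lies upstream of the gene's start in the table, and the bases after it were not found in a GENCODE transcript, unlike those of the other 3 genes, so its composition and match position hold for that start only. A match describes the sequence only and was not tested for binding. The gene bounds in the table equal those of GENCODE M21 on GRCm38 for all 10 genes, with Igfbp3 at chromosome 11, 7206086 to 7213923 (minus strand), Igfbp4 at chromosome 11, 99041244 to 99054392 (plus), Igfbp6 at chromosome 15, 102144362 to 102149511 (plus) and Igfbp7 at chromosome 5, 77349240 to 77408041 (minus).

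The first question was how chronic isoproterenol moved the family. Igfbp3 fell and Igfbp7 rose, while neither growth factor nor either receptor passed the test. With p from the quasi-likelihood test of edgeR, adjusted over all tested genes, 1 of 10 members was higher and 1 of 10 lower, against 6.94% of all tested genes called higher and 5.62% called lower. The members' median log2 fold change was 0.26, against 0.00 over all tested genes.

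Igfbp3, the binding protein that carries most of the circulating factor together with Igfals, had a lowest, median and highest value of 9.95, 11.8 and 14.6 CPM in isoproterenol libraries, against 16.0, 18.5 and 20.5 CPM in control libraries. Every isoproterenol library lay below every control library, which was so for 3.25% of all tested genes, while 3.66% lay without overlap in the higher direction. The fitted log2 fold change was -0.61 (SE 0.12, 95% interval -0.86 to -0.37), a level 1.53-fold lower, with an adjusted p of 0.00161. It kept its call under all 22 alternatives, with log2 fold changes of -0.68 to -0.56. Macrophage markers moved the opposite way between these groups, with 8 of 10 called higher. Within groups, however, Igfbp3 deviated together with the mean of their log2 CPM deviations (r = 0.79 over 18 libraries). This was not particular to macrophage markers. Igfbp3 also deviated with fibroblast (0.72), smooth muscle and pericyte (0.67) and adipocyte (0.66) markers, and against ventricular cardiomyocyte markers (-0.69). The part of cell composition in the difference was not tested.

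Igfbp7 had a lowest, median and highest value of 103 CPM, 133 CPM and 164 CPM with isoproterenol, against 75.5, 93.6 and 112 CPM in control libraries. The groups overlapped, with 5 of 6 isoproterenol libraries above the highest control library. The log2 fold change was 0.59 (SE 0.16, 95% interval 0.26 to 0.93), 1.51-fold higher, with an adjusted p of 0.0203. Leaving out the 4 Myl7-high libraries ended the call (adjusted p = 0.170), as did leaving out control replicate 4 (0.0528), isoproterenol replicate 3 (0.0503) or isoproterenol replicate 5 (0.0517). The call held in 9 of 12 fits that left out 1 library and in 9 of 10 other alternatives. Among the latter was the fit with the mean of the atrial markers as covariate. Fibroblast markers were higher in the same comparison (4 of 8 called). Within groups Igfbp7 deviated with the mean of their log2 CPM deviations (r = 0.91, 18 libraries), and their part was not tested. Igfbp7 shares 85 of its 1209 exonic bases with Polr2b, an RNA polymerase subunit on the other strand that held 29.5% as many counts. Strand use in counting is not given in the sources used here, so Igfbp7 values are uncertain for reads where these genes overlap. Polr2b itself had 35.2 ± 3.45 CPM with isoproterenol and 37.4 ± 0.574 CPM in control libraries (SD, n = 6 each), with a log2 fold change of -0.09 and an adjusted p of 0.545.

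Igfbp4, a binding protein known mainly as an inhibitor of the factors and a substrate of Pappa, had 67.5, 74.5 and 92.6 CPM (lowest, median, highest) with isoproterenol and 56.2, 60.9 and 68.9 CPM in control libraries. All 6 isoproterenol libraries lay above the control mean and 4 above the highest control library, with a log2 fold change of 0.34 (SE 0.12) and an adjusted p of 0.0629. Igfbp6 had 13.9, 16.1 and 20.2 CPM with isoproterenol and 7.79, 10.8 and 15.8 CPM in control libraries. Again all 6 lay above the control mean and 4 above its highest library, with a log2 fold change of 0.55 (SE 0.21) and an adjusted p of 0.0892. Neither passed the threshold of 0.05, and a miss does not show that the levels were alike. Both passed with the atrial covariate, with only these 12 libraries fitted and with DESeq2. Igfbp6 also passed with limma-voom and without control replicate 2.

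The growth factors and receptors overlapped between isoproterenol and control. Igf1 averaged 10.5 ± 1.85 CPM with isoproterenol and 8.69 ± 2.06 CPM in control libraries (SD, n = 6 each), with a 95% interval for the log2 fold change of -0.09 to 0.63. Igf2, the mostly fetal factor, averaged 17.5 ± 0.826 CPM with isoproterenol and 18.2 ± 1.90 CPM in control libraries, with an interval of -0.27 to 0.16. Igf1r averaged 16.9 ± 2.82 CPM with isoproterenol and 17.6 ± 3.63 CPM in control libraries (interval -0.38 to 0.27), and Igf2r 118 ± 13.4 CPM with isoproterenol and 123 ± 11.7 CPM in control libraries (interval -0.30 to 0.18). These intervals leave out a doubling or a halving for each of the 4 genes. Igfbp5 averaged 146 ± 37.4 CPM with isoproterenol and 123 ± 24.05 CPM in control libraries, with an interval of -0.14 to 0.63. Igfbp2, with 3 to 24 counts per library over the study, was too low for a firm statement (interval -0.49 to 1.37).

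**Figure D2:**
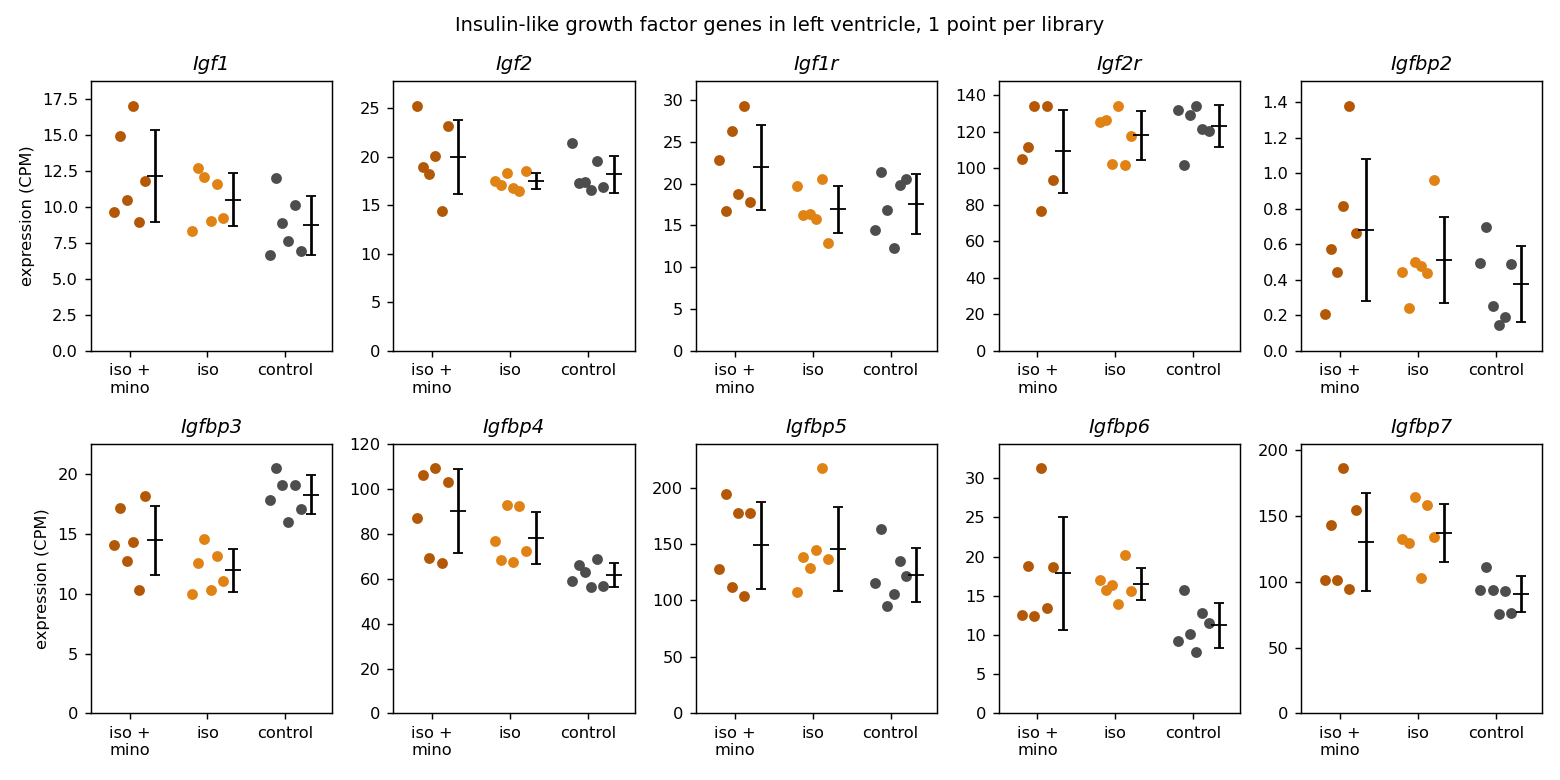
Normalised abundance of the 10 genes in CPM (linear axes from 0), 1 panel a gene, with 6 libraries (points) and mean with SD for isoproterenol and minocycline, isoproterenol and control. In the Igfbp3 panel all isoproterenol libraries lie below the lowest control library at 16.0 CPM.

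The second question was whether minocycline altered these genes in hearts under isoproterenol. No member passed the test, and over all genes 0.0527% did (7 genes, 0.00753% higher and 0.0452% lower). No member was without overlap between these groups, against 0.188% of all genes in the higher and 0.158% in the lower direction. At an unadjusted p under 0.05 there were 2 of 10 members, against 7.6% of all tested genes, and DESeq2 and the limma-voom fit also called no member. The members' median log2 fold change was 0.20, against 0.00 over all tested genes.

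Those 2 members were Igf1r and Igfbp3. Igf1r had 16.7, 20.8 and 29.3 CPM (lowest, median, highest) with isoproterenol and minocycline, against 12.9, 16.3 and 20.6 CPM with isoproterenol. The ranges overlapped, 5 of 6 libraries lay above the isoproterenol mean, and the log2 fold change was 0.37 (95% interval 0.05 to 0.70) with an adjusted p of 0.593. Igfbp3 had 10.3, 14.2 and 18.1 CPM with isoproterenol and minocycline, against 9.95, 11.8 and 14.6 CPM with isoproterenol. Here too the ranges overlapped, and the log2 fold change was 0.28 (95% interval 0.03 to 0.52) with an adjusted p of 0.593. For Igfbp7 the interval was -0.40 to 0.26, for Igfbp4 -0.04 to 0.45, for Igfbp6 -0.31 to 0.54 and for Igf1 -0.14 to 0.56.

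The third comparison set isoproterenol and minocycline against control, which shares its controls with the first. Igfbp4, Igfbp6 and Igfbp7 rose and Igfbp3 fell. That made 3 of 10 members higher and 1 of 10 lower, against 10.2% of all tested genes called higher and 9.05% called lower, with a members' median log2 fold change of 0.40 against 0.00 over all tested genes.

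Igfbp4 had 66.9, 95.1 and 109 CPM (lowest, median, highest) with isoproterenol and minocycline, against 56.2, 60.9 and 68.9 CPM in control libraries. The groups overlapped in 1 library, and 5 of 6 lay above the highest control. The log2 fold change was 0.55 (SE 0.12, 95% interval 0.30 to 0.80), 1.46-fold higher, with an adjusted p of 0.00326, and the call held under all 22 alternatives. Igfbp6 had 12.4, 16.0 and 31.3 CPM with isoproterenol and minocycline, against 7.79, 10.8 and 15.8 CPM in control libraries. Its highest library, replicate 4, stood apart from the rest of its group, and 3 of 6 lay above every control. The log2 fold change was 0.67 (SE 0.21), 1.59-fold higher, with an adjusted p of 0.0308. The call was lost without control replicate 1, 3, 4 or 6 (adjusted p 0.0602, 0.0643, 0.0752 and 0.0512), without isoproterenol and minocycline replicate 2, 4 or 6 (0.054, 0.07 and 0.0601) and in 4 of 10 other alternatives (0.051 to 0.1).

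Igfbp7 had 94.4, 123 and 186 CPM with isoproterenol and minocycline, against 75.5, 93.6 and 112 CPM in control libraries. All 6 lay above the control mean and 3 above the highest control, in a wide spread with replicates 2, 4 and 6 high and replicates 1, 3 and 5 within the control range. The log2 fold change was 0.52 (SE 0.16), 1.44-fold higher, with an adjusted p of 0.0283. Igfbp3 had 10.3, 14.2 and 18.1 CPM with isoproterenol and minocycline, against 16.0, 18.5 and 20.5 CPM in control libraries. All 6 lay below the control mean and 4 below the lowest control, with a log2 fold change of -0.33 (SE 0.12), 1.26-fold lower, and an adjusted p of 0.0466. Igfbp3 lost its call without control replicate 1, 2, 3, 5 or 6 (adjusted p 0.0618, 0.088, 0.0827, 0.0783 and 0.0584) and without isoproterenol and minocycline replicate 1, 3, 4 or 5 (0.0749, 0.0822, 0.0781 and 0.0853), and in 6 of 10 other alternatives. Igfbp7 lost it without control replicate 4 or 6 (0.0683 and 0.0635), without isoproterenol and minocycline replicate 2, 4 or 6 (0.0558, 0.0781 and 0.0695), with no filter (0.0538) and without the Myl7-high libraries (0.164). Fibroblast markers (7 of 8 called higher) and macrophage markers (8 of 10 called higher) moved in the same comparison, and their part was not tested.

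Igf1 had 8.92, 11.1 and 17.0 CPM with isoproterenol and minocycline, against 6.64, 8.23 and 12.0 CPM in control libraries. All 6 lay above the control mean and 2 above the highest control, with a log2 fold change of 0.48 (SE 0.17) and an adjusted p of 0.0540. It passed with the atrial covariate (0.0395), with DESeq2 (0.0361), and without control replicate 2 (0.0187) or isoproterenol and minocycline replicate 1 (0.0416), 3 (0.0469) or 5 (0.0262). The other members did not pass either, with adjusted p of 0.158 to 0.349. Igf2 averaged 20.02 ± 3.84 CPM with isoproterenol and minocycline and 18.2 ± 1.90 CPM in control libraries, and Igf1r 21.9 ± 5.09 CPM with isoproterenol and minocycline and 17.6 ± 3.63 CPM in control libraries (SD, n = 6 each). Igf2r averaged 109 ± 22.7 CPM with isoproterenol and minocycline and 123 ± 11.7 CPM in control libraries, and Igfbp5 149 ± 38.8 CPM with isoproterenol and minocycline and 123 ± 24.05 CPM in control libraries. All of these overlapped between the groups. Igfbp2, known from fetal tissue and the circulation, averaged 0.679 ± 0.401 CPM with isoproterenol and minocycline and 0.377 ± 0.215 CPM in control libraries.

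**Figure D3:**
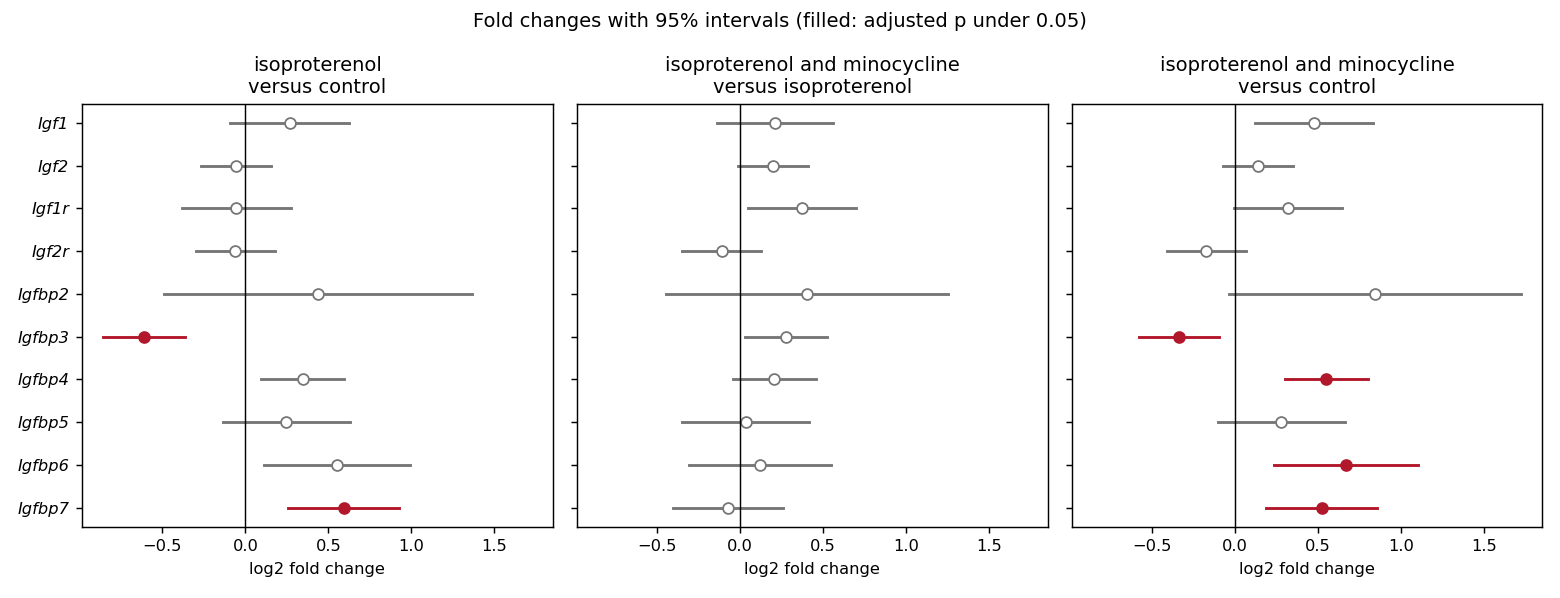
Fitted log2 fold changes of the 10 genes with 95% intervals from edgeR's quasi-likelihood fit, for the 3 comparisons, with filled points past an adjusted p of 0.05. Igfbp3 lies below 0 in both comparisons with control, at -0.61 for isoproterenol and -0.33 for isoproterenol and minocycline, and Igfbp7 above 0 in both.

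The mix of binding proteins in a library does not depend on how libraries are scaled to each other. Igfbp3 made up 1.90 to 3.19% of the binding proteins' summed TPM with isoproterenol and minocycline and 1.94 to 2.46% with isoproterenol, against 4.21 to 4.95% in control libraries. Neither isoproterenol group overlapped the control group in this share, while the 2 isoproterenol groups overlapped each other. The share was not tested, has no rate over all genes beside it and reuses the Igfbp3 values above, so it is not separate support. In TPM, Igfbp3 itself ran from 5.28 to 9.31 with isoproterenol and minocycline and 5.11 to 7.67 with isoproterenol. Both ranges overlapped the 7.12 to 9.73 TPM of control libraries. Unlike CPM, TPM do not use the normalised library totals, so the 2 units can differ between groups. M6pr, for example, averaged 13.8 TPM with isoproterenol and minocycline, 14.7 TPM with isoproterenol and 12.7 TPM in control libraries. In CPM its averages were 36.9, 37.4 and 36.7. The part of scaling in TPM differences between groups was not tested. A share also falls when the other binding proteins rise: their sum with Igfbp3 averaged 272 ± 73.2 TPM with isoproterenol and minocycline, 286 ± 55.2 TPM with isoproterenol and 181 ± 28.2 TPM in control libraries, whereas Igfbp3 itself averaged 7.23 TPM with isoproterenol and minocycline, 6.23 TPM with isoproterenol and 8.40 TPM in control libraries. The share of Igfbp7 averaged 61.8 ± 1.68% with isoproterenol and minocycline, 65.0 ± 3.02% with isoproterenol and 59.8 ± 2.59% in control libraries, and that of Igfbp4 11.9 ± 1.22% with isoproterenol and minocycline, 10.2 ± 0.581% with isoproterenol and 11.2 ± 0.918% in control libraries (SD, n = 6 each).

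**Figure D4:**
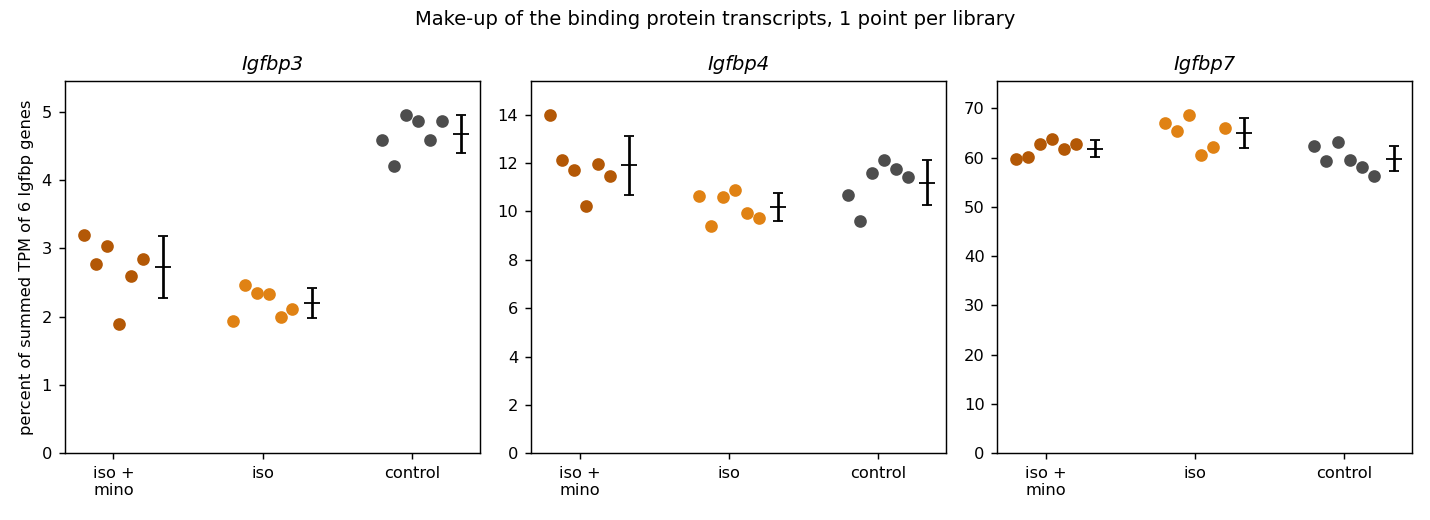
Share of Igfbp3, Igfbp4 and Igfbp7 in the summed TPM of the 6 binding proteins, in percent (axes from 0), with 6 libraries (points) and mean with SD for isoproterenol and minocycline, isoproterenol and control. The Igfbp3 share is 3.19% or lower in every isoproterenol library with or without minocycline and 4.21% or higher in every control library.

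Within groups most members deviated together. Correlations of log2 CPM deviations from the group means over 18 libraries, given as a description, ran from 0.48 to 0.87 in the 15 pairs among Igf1, Igfbp3, Igfbp4, Igfbp5, Igfbp6 and Igfbp7. The highest were Igfbp4 with Igfbp7 (0.87) and Igfbp6 with Igfbp7 (0.84), and Igfbp3 and Igfbp4, which differed from control in opposite directions, reached 0.80. Igf2r ran against those 6 genes, with -0.85 to -0.64. Marker lists were compared through the mean of their markers' deviations. Igf2r deviated with the ventricular cardiomyocyte markers (0.81) and against the fibroblast markers (-0.83). Igf1, Igfbp4, Igfbp6 and Igfbp7 deviated with both the fibroblast markers (0.81, 0.86, 0.91 and 0.91) and the macrophage markers (0.87, 0.86, 0.81 and 0.87). So did Igfbp3 (0.72 with fibroblast and 0.79 with macrophage markers) and Igfbp5 (0.71 and 0.78). Igfbp7 also deviated with the smooth muscle and pericyte markers (0.87). These points share library, depth and tissue sampling.

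**Figure D5:**
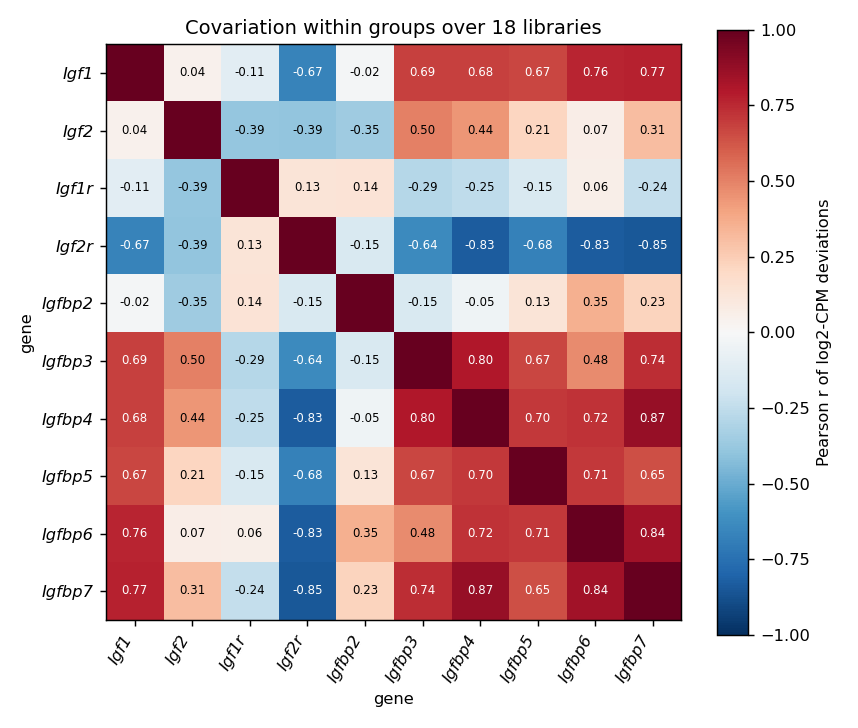
Pearson correlation of within-group deviations (log2 CPM, 18 libraries) for the 45 pairs of the 10 genes, as a colour scale from -1 to 1. Igf1 and Igfbp3 to Igfbp7 form a block of positive values up to 0.87, and Igf2r is negative against each of them.

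The genes most like Igfbp7 by this measure, among 12242 compared, were Sparc (r = 0.96, rho = 0.95), a matrix protein, Bmp1 (0.95, 0.92), a procollagen protease, and Col16a1 (0.94, 0.93), a collagen chain. Sparc was also higher with isoproterenol, at 407 CPM on average against 239.9 CPM in control libraries (log2 fold change 0.76, adjusted p 0.00133), whereas Bmp1 (0.11, adjusted p 0.541) and Col16a1 (0.60, adjusted p 0.0691) did not pass. The genes most like Igfbp3 were Lcp1 (r = 0.88, rho = 0.84), an actin-bundling protein of leukocytes, Pf4 (0.88, 0.82), a chemokine, and Stab1 (0.87, 0.89), a scavenger receptor. Between isoproterenol and control Lcp1 and Pf4 were higher, with log2 fold changes of 0.69 (adjusted p 0.00106) and 0.89 (adjusted p 2.98e-05), the opposite of Igfbp3.

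Of 55 listed genes of the ligand supply, the proteases, the receptors and the signalling chain, 49 were tested. With isoproterenol against control 0 of the 49 were higher and 1 lower (2.04%), against 6.94% and 5.62% of all tested genes, and the median log2 fold change was -0.01. The 1 was Eif4ebp1, the translation repressor that mTORC1 phosphorylates, at 33.1 ± 3.75 CPM with isoproterenol and 41.8 ± 3.47 CPM in control libraries (SD, n = 6 each), a log2 fold change of -0.34 (SE 0.07) with an adjusted p of 0.00457. With isoproterenol and minocycline Eif4ebp1 averaged 38.4 ± 2.80 CPM, between these 2 groups. With isoproterenol and minocycline against isoproterenol edgeR called 0, with 3 of the 49 at an unadjusted p under 0.05, against 7.6% of all tested genes. Among the 3 were Pappa (log2 fold change 0.60, adjusted p 0.503 in edgeR) and Igfals (-0.32, adjusted p 0.593). Against control, isoproterenol and minocycline gave 1 higher (2.04%) and 7 lower (14.3%), against 10.2% higher and 9.05% lower among all tested genes, with a median log2 fold change of -0.06.

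The higher gene was Pappa, the protease that cuts Igfbp4, at 1.09 ± 0.248 CPM with isoproterenol and minocycline and 0.585 ± 0.119 CPM in control libraries (SD, n = 6 each), without overlap. Libraries lay apart in the higher direction for 3.55% of all tested genes in this comparison and in the lower for 3.59%, and for 0 of the 10 members. Pappa's log2 fold change was 0.88 (SE 0.21) with an adjusted p of 0.00680. Among the lower genes, Ghr, the growth hormone receptor, had 71.1 ± 11.2 CPM with isoproterenol and minocycline and 85.8 ± 4.31 CPM in control libraries (adjusted p 0.0266). Stat5a, a transcription factor downstream of Ghr, had 10.9 ± 2.01 CPM with isoproterenol and minocycline and 14.8 ± 2.07 CPM in control libraries (adjusted p 0.00925), and Irs1, the adaptor that joins Igf1r and the insulin receptor to PI3K, had 12.8 ± 2.19 CPM with isoproterenol and minocycline and 19.1 ± 3.78 CPM in control libraries (adjusted p 0.0289). Foxo3, a transcription factor that AKT inhibits, had 48.6 ± 14.2 CPM with isoproterenol and minocycline and 68.2 ± 9.001 CPM in control libraries (adjusted p 0.0362), and Grb2, Grb10 and Rps6kb1 fell by 0.21, 0.22 and 0.22 on the log2 scale. With isoproterenol alone Ghr, Stat5a, Irs1 and Foxo3 averaged 79.3, 12.4, 15.9 and 50.7 CPM, also below their control means. None of them passed there in edgeR (adjusted p 0.395, 0.142, 0.357 and 0.0811). For Foxo3 every isoproterenol library lay below every control library, as for 3.25% of all tested genes. Stat5a kept its call in all 22 alternatives and Pappa in each one that tested it. Pappa rests on few counts, at 15 to 29 per library with isoproterenol and minocycline and 6 to 15 in control libraries. Ghr, Irs1, Foxo3, Grb2, Grb10 and Rps6kb1 each lost theirs without the Myl7-high libraries (adjusted p 0.0661, 0.0731, 0.0926, 0.112, 0.147 and 0.165) and in 4, 5, 5, 6, 5 and 8 of 12 fits that left out 1 library, which for all 6 genes included control replicate 4 and isoproterenol and minocycline replicate 6, with adjusted p of up to 0.129. All 6 kept their calls with the mean of the atrial markers as covariate. Apart from leaving out 1 library, each lost its call in 2 to 4 of 10 alternatives. Ventricular cardiomyocyte markers moved in the same comparison, with 3 of 8 called lower, and their part was not tested.

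Other carriers, receptors and neighbours of the pathway did not pass in any comparison. Igfals, the partner of Igfbp3 in the circulating complex, averaged 2.99 ± 0.641 CPM with isoproterenol and minocycline, 3.74 ± 0.327 CPM with isoproterenol and 3.46 ± 0.419 CPM in control libraries (SD, n = 6 each). The insulin receptor Insr averaged 88.9 ± 17.5 CPM with isoproterenol and minocycline, 88.1 ± 12.9 CPM with isoproterenol and 106.7 ± 9.06 CPM in control libraries, with a log2 fold change of -0.28 for isoproterenol against control and an adjusted p of 0.121. M6pr, the second mannose 6-phosphate receptor, averaged 36.9 CPM with isoproterenol and minocycline, 37.4 CPM with isoproterenol and 36.7 CPM in control libraries, with 95% intervals for the log2 fold change of -0.08 to 0.14 for isoproterenol against control and -0.10 to 0.12 for isoproterenol and minocycline against control. H19, the maternally expressed RNA beside Igf2, averaged 14.5 ± 5.80 CPM with isoproterenol and minocycline, 12.4 ± 3.85 CPM with isoproterenol and 11.4 ± 2.98 CPM in control libraries. Irs2, another adaptor of both receptors, varied widely, at 15.9 ± 12.7 CPM with isoproterenol and minocycline, 22.7 ± 21.4 CPM with isoproterenol and 19.6 ± 14.9 CPM in control libraries, and its interval for isoproterenol against control ran from -1.14 to 1.59. Stc2, an inhibitor of Pappa, averaged 8.63 ± 0.979 CPM with isoproterenol and minocycline, 10.01 ± 2.02 CPM with isoproterenol and 9.74 ± 2.47 CPM in control libraries. Igfbp1, the binding protein of the liver, had 0 counts in all 18 libraries, and 3 counts would be 0.132 to 0.211 CPM in a single library.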

How the data were processed

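Left ventricular polyA RNA was sequenced in 18 libraries as 150-base pairs, with trimming and RNA-seq analysis in CLC Genomics Workbench 21.0.3, per the labels' protocols. Genome build, annotation and strand setting were not given in the sources used here. Both units, raw counts and TPM per gene, were deposited by the authors in 1 table, and columns were matched to samples through the number in each sample's description. Counts (14203041 to 22688664 per library) were tested with edgeR 4.0.16: genes kept by filterByExpr, TMM factors, 1 quasi-likelihood fit over the 3 groups of 6, and Benjamini-Hochberg adjusted p under 0.05. CPM use the TMM library sizes. The deposited TPM served to set genes of the same library beside each other. TPM averages and ranges are also printed by group, without TMM scaling and without a test between groups. Correlations used log2 CPM with a prior count of 2. Alternatives were DESeq2 1.42.0, limma-voom 3.58.1 with quality weights, other scalings and filters, an atrial covariate, 12 libraries only, and libraries left out. Replicate numbers follow accession order. The script was tested on simulated data. Named genes were the members, called pathway genes, 10 pathway genes whatever their values, genes overlapping a member, and the 3 genes most like each member called with isoproterenol. Members and lists were chosen with earlier results of these data known. The limit for a count of 0 covers counting error only.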

Additional observations from a re-analysis of the deposited data

Results flagged for a closer look

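In 3 of 30 sets of 6 libraries, 1 library lay further from the rest than Dixon's critical value for 6 samples allows (gap divided by range), where chance flags about 1 in 20. Igfbp6 in isoproterenol and minocycline replicate 4 was 31.3 CPM, with the next library at 18.8 CPM and the lowest at 12.4 CPM (gap over range 0.664). Igfbp5 in isoproterenol replicate 5 was 217 CPM, with the next at 145 CPM and the lowest at 108 CPM (0.660). Igfbp2 in isoproterenol replicate 6 was 0.964 CPM, with the next at 0.498 CPM and the lowest at 0.241 CPM (0.646).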

How the results depend on the processing

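Of 654 alternative values for single members, 590 kept their direction and side of the threshold, 37 lost a call, 14 gained one and 13 changed sign. Each value that changed sign belonged to a gene called in neither fit. Between isoproterenol and minocycline and isoproterenol, the log2 fold change of Igfbp5 (0.03) was -0.11 with the atrial covariate, -0.0064 with limma-voom and -0.051 to 0.18 with 1 library left out. That of Igfbp6 (0.12) was -0.0087 with the covariate, -0.065 with limma-voom and -0.11 to 0.20 with 1 left out, and that of Igfbp7 (-0.07) was -0.20 to 0.0055 with 1 left out. Between isoproterenol and control that of Igf1r (-0.05) was -0.14 to 0.014 with 1 left out. Between isoproterenol and control, 2 members were called, against 4 with the atrial covariate, 4 with only these 12 libraries fitted, 4 with DESeq2 and 1 without the Myl7-high libraries (1 to 3 with 1 library left out). Igfbp4 and Igfbp6 were the members gained in this comparison, and limma-voom gained Igfbp6 alone. The pathway count of 1 became 4 with the covariate, 5 with 12 libraries, 3 with limma-voom and 3 with DESeq2 (1 to 2 with 1 library left out). Between isoproterenol and minocycline and control, 4 members became 1 with no filter, 1 without the Myl7-high libraries and 2 with 12 libraries (1 to 4 with 1 library left out), and 5 with the covariate or DESeq2, which gained Igf1. The pathway count of 8 became 4 with no filter, 3 without the Myl7-high libraries and 4 with 12 libraries (2 to 9). Between isoproterenol and minocycline and isoproterenol, members and pathway stayed at 0 under every alternative run. Without the Myl7-high libraries the counts over all genes were 681 for isoproterenol against control, 1369 for isoproterenol and minocycline against control and 1 for isoproterenol and minocycline against isoproterenol. For isoproterenol and minocycline against isoproterenol the count was also 2 with 12 libraries and 35 with DESeq2. With 1 library left out the count ran from 1079 to 1673 for isoproterenol against control, 1789 to 2930 for isoproterenol and minocycline against control and 1 to 13 for isoproterenol and minocycline against isoproterenol. The causes of these changes were not tested. Fits that left libraries out also held fewer libraries, and the part of that number was not tested either. Depth limits Igfbp2, at 3 to 24 counts per library, and Pappa, at 6 to 29. No paired analysis was possible because the labels give the groups no shared replicate numbers.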

Other observations

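Igfbp3 counts per 100 Igfbp4 counts, a ratio chosen after the values were seen and given without a test, were 13.1 to 18.4 with isoproterenol and minocycline (median 16.2) and 12.9 to 18.5 with isoproterenol (median 15.3), against 27.7 to 31.1 in control libraries (median 30.2). Both isoproterenol groups lay below the lowest control library. The ratio joins a lower Igfbp3 and a higher average Igfbp4, so it is not a measure of Igfbp3 alone. It has no rate over other pairs of genes beside it and reuses the Igfbp3 values above, so it is not separate support.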
